A study of Mus musculus with 6 samples.

Results

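The Hippo pathway genes were examined in the RNA-Seq profiles of mock and p140Cap TuBo cells. The set comprised 10 genes, namely the coactivators Yap1 and Wwtr1 (which encodes TAZ), the TEAD transcription factors Tead1 and Tead3, the kinases Lats1 and Lats2, and the target genes Ctgf (Ccn2), Cyr61 (Ccn1), Ankrd1 and Amotl2. They were chosen by gene symbol, and all 10 were found among the 21960 genes of the deposited counts. TuBo is a mouse mammary carcinoma line whose donor strain, BALB/c-MMTV-NeuT, carries activated rat HER2/neu under the mammary-directed MMTV promoter. Both groups are this line, called Balb-NeuT cell line in the labels, with 3 libraries each. The labels give the mock samples as wt, and what the mock cells received is not stated. The p140Cap cells carry the p140Cap cDNA from the pBabe-puro retrovirus, were selected with puromycin, and were put together from clones that each grew from a single cell. The design text speaks of mice where the sample labels give a cell line, and the samples were read here as the cell line. Nothing in these sources says that libraries of a group came from separate cultures, so p-values measure the spread between these libraries, which may be technical.

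In the Hippo pathway, the MST kinases (Stk3 and Stk4) with the scaffold SAV1 activate the LATS kinases, which phosphorylate YAP and TAZ and keep them out of the nucleus. Unphosphorylated YAP and TAZ enter the nucleus, bind TEAD factors on DNA and switch on genes of growth, adhesion and matrix, among them Ctgf, Cyr61, Ankrd1 and Amotl2. In mammary epithelium the pathway reads cell density, polarity and stiffness, and TAZ has been tied to stem-like behavior of breast tumor cells. Because much of this control acts on protein phosphorylation and location, RNA levels of the kinases and coactivators do not measure pathway activity.

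The TEAD motif was searched as GGAATG or, on the other strand, CATTCC, in the 250 bases before each start site in the RefSeq promoters of GRCm38.p6 (mm10). At least 1 promoter of 14.4% of all genes, and 12.6% of all 32851 promoters, held it. Promoters of 8 of the 10 members were matched, and Ctgf and Tead1 were not. The motif was present in a promoter of 6 of these 8, which were Yap1, Wwtr1, Tead3, Cyr61, Ankrd1 and Amotl2, and these letters were not in the windows of Lats1 and Lats2. The promoters of the 3 matched target genes are shown because these genes are the readout of TEAD-bound YAP and TAZ. Each runs 5′ to 3′ on the strand of its gene and ends at the base before the start site, and capitals mark the motif on either strand. The windows are chr3:145649986-145650235 on the minus strand for Cyr61, chr19:36119845-36120094 on the minus strand for Ankrd1, and chr9:102717554-102717803 on the plus strand for Amotl2.
Cyr61: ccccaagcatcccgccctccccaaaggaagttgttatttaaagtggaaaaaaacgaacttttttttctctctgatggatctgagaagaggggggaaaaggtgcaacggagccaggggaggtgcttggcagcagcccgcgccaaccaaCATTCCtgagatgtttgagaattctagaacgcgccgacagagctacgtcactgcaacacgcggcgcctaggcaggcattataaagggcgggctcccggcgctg
Ankrd1: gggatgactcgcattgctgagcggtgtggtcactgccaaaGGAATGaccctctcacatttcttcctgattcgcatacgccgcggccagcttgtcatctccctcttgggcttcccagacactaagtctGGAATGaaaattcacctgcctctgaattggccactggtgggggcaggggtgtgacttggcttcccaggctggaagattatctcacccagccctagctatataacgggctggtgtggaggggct
Amotl2: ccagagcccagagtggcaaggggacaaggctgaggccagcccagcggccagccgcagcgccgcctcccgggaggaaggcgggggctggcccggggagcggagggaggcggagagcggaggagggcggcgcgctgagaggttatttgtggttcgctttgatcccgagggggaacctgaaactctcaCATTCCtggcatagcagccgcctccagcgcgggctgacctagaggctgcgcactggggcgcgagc
The first base of the motif lies 103 bases before the start site in Cyr61, 65 bases before an internal start site in Amotl2, and 210 and 123 bases before the start site in Ankrd1. The Amotl2 window lies inside the gene as annotated, downstream of its outermost start. A match is a description of the sequence and was not tested as a binding site.

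Each mock library was deeper (33058719 to 75506562 reads on genes) than each p140Cap library (13770385 to 15364850). Srcin1, which encodes p140Cap, had 1192, 509 and 552 reads in mock and 34371, 36989 and 30546 reads in p140Cap libraries. Of 11800 genes tested by edgeR's quasi-likelihood method (Benjamini-Hochberg adjustment over all of them, threshold 0.05), 71.1% were called, 35.9% lower and 35.2% higher in p140Cap cells, so a call by itself is common here. The epithelial markers Epcam, Krt8, Krt18, Cdh1, Cldn3, Cldn7 and Erbb2 were expressed in every library, whereas Krt19 had between 1 and 5 reads. Basal markers summed to less than 1 CPM (reads for each 1000000 of TMM-adjusted library size) in every library. Leukocyte markers summed to 2.04 to 2.34 CPM in mock and 3.23 to 4.09 CPM in p140Cap libraries, all from Cd68, while the other 4 of 5, Ptprc among them, were at 0 in all libraries. Fibroblast markers summed to 9.97 to 10.5 and 11.3 to 14.1 CPM, with 4 of 7 (Col1a2, Col3a1, Dcn and Lum) at 0 in all libraries. Most of this sum was Pdgfra, with means of 7.18 CPM in mock and 7.67 CPM in p140Cap, which was not called (edgeR adjusted p = 0.499). Endothelial markers summed to 0.210 to 0.478 and 0.477 to 0.734 CPM, mostly Pecam1 with Kdr at 0. The part of Cd68, Col1a1 and Pecam1, which were higher in p140Cap cells, in the values below was not tested. In such bulk RNA, fewer cells of a kind and less RNA per cell cannot be told apart.

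Among the 10 Hippo genes, Ctgf was lower in p140Cap cells by 5.45-fold, and Tead3, Wwtr1 and Tead1 were higher by 1.68-fold, 1.33-fold and 1.10-fold. Yap1, Lats1, Lats2, Cyr61 and Amotl2 did not pass the test, and Ankrd1 had too few reads to be tested. Thus 4 of the 9 tested members were called (44.4%, against 71.1% of all tested genes), 1 lower and 3 higher. The libraries of the 2 groups did not overlap for 4 of the 9, against 73.4% of all tested genes. The median log2 fold change was 0.03 over the 9 members and -0.00 over all tested genes. The same 1 lower and 3 higher calls were counted after every library was thinned to the smallest total. Ctgf, the only lower call, passed the filter on low counts through its mock libraries alone. With at least 10 reads required in every library Ctgf is not tested, and 0 members were lower. Without p140Cap replicate 2, 2 members were lower. With no filter, or without p140Cap replicate 1, 2 were higher.

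**Figure D1:**
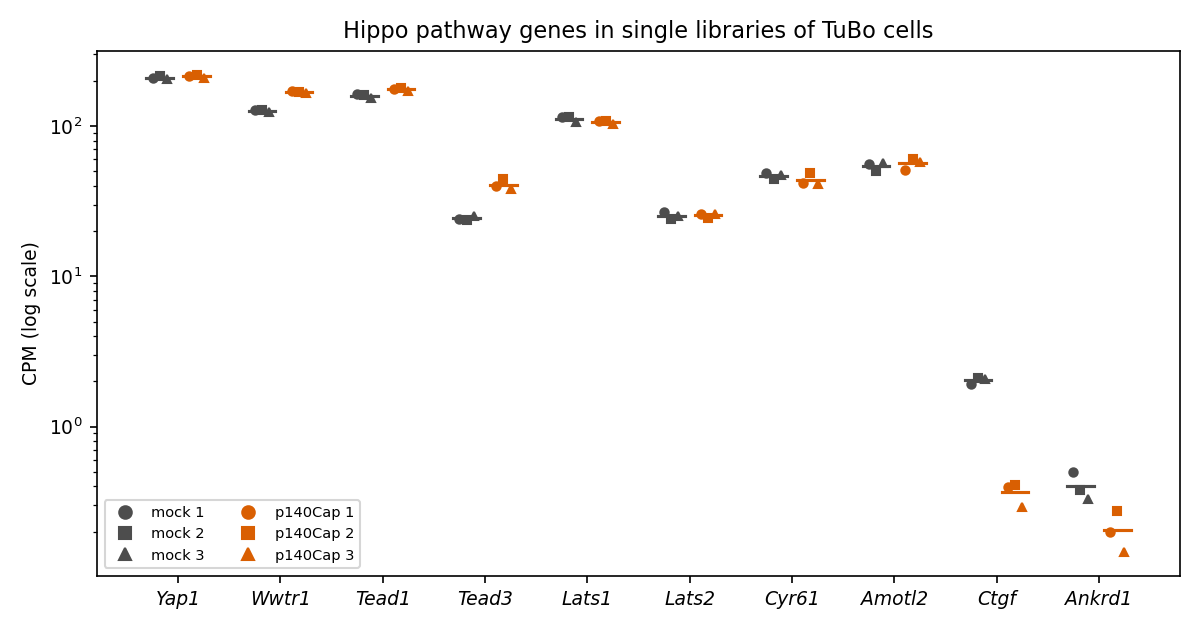
CPM of the 10 Hippo genes in each of the 6 libraries, on a log axis. Points are single libraries (gray for mock, orange for p140Cap, with a shape for each replicate number) and bars are group means. Ctgf lies near 2.04 CPM in mock and 0.366 CPM in p140Cap, Wwtr1 and Tead3 lie higher in every p140Cap library, and the points of Yap1, Lats1, Lats2, Cyr61 and Amotl2 overlap.

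Of the coactivators, Wwtr1 was higher in p140Cap cells and Yap1 was not called. Yap1 (ENSMUSG00000053110, mm10 chromosome 9, 7931999 to 8004638, minus strand) had 208, 215 and 207 CPM in the mock libraries and 216, 220 and 209 CPM in the p140Cap libraries. The groups overlapped, with means of 210 ± 4.46 (SD, n = 3) and 215 ± 5.50 CPM. Its log2 fold change of 0.03 (SE 0.05) was not called by edgeR (adjusted p = 0.505), and the 95% interval ran from -0.06 to 0.13. Wwtr1 (ENSMUSG00000027803, mm10 chromosome 3, 57455644 to 57575910, minus strand), the gene of the paralogous coactivator TAZ, had 127, 128 and 124 CPM in mock and 172, 169 and 166 CPM in p140Cap libraries. Every p140Cap library was above every mock library, with means of 127 ± 1.94 (SD, n = 3) and 169 ± 2.72 CPM. The log2 fold change was 0.42 (SE 0.04, 95% interval 0.32 to 0.51), and edgeR's adjusted p was 3.34e-07.

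Levels of different genes were compared per kb of exon, as CPM per kb. Taken within each library, the ratio of the Wwtr1 to the Yap1 level was 0.472 to 0.484 in mock and 0.607 to 0.631 in p140Cap cells. Yap1 RNA was thus the more abundant of the pair in all 6 libraries, and the gap was narrower in p140Cap cells. The log2 ratio differed by 0.38, from -1.07 ± 0.02 (SD, n = 3) to -0.68 ± 0.03. A two-sided exact permutation test gave p = 0.1, the smallest that 3 against 3 libraries allow, and 0.125 after adjustment over the 5 ratios compared.

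Within the TEAD family, which binds the DNA for YAP and TAZ, Tead3 and Tead2 were higher, Tead4 was lower and Tead1, the most abundant member, was slightly higher. Tead1 (ENSMUSG00000055320, mm10 chromosome 7, 112679356 to 112906784, plus strand) had 162, 160 and 155 CPM in mock and 177, 178 and 171 CPM in p140Cap libraries. The groups did not overlap, but the step was small, with a log2 fold change of 0.14 (SE 0.05, 95% interval 0.04 to 0.24, edgeR adjusted p = 0.0112). Without a filter on low counts the adjusted p of Tead1 in edgeR was 0.0675, and without p140Cap replicate 1 it was 0.0542, so this call does not hold under every setting.

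Tead3 (ENSMUSG00000002249, mm10 chromosome 17, 28331671 to 28350805, minus strand) had 24.1, 23.7 and 25.3 CPM in mock and 39.7, 44.5 and 38.3 CPM in p140Cap libraries. All p140Cap libraries were higher, and the means were 24.4 ± 0.857 (SD, n = 3) and 40.8 ± 3.23 CPM. The log2 fold change of Tead3 was 0.75 (SE 0.07, 95% interval 0.61 to 0.88, edgeR adjusted p = 2.86e-08), and 82.7% of the tested genes had a smaller absolute log2 fold change. Tead4, which is not among the 10 genes but completes the family, had 33.9, 32.7 and 34.4 CPM in mock and 21.8, 22.4 and 21.4 CPM in p140Cap libraries. Tead4 fell by 0.62 on the log2 scale (SE 0.06, edgeR adjusted p = 1.26e-07), so Tead3 and Tead4 changed in opposite directions. Tead2 was scarce, with 77, 27 and 43 reads in mock and 29, 30 and 23 reads in p140Cap libraries, and its log2 fold change was 0.94 (SE 0.24, edgeR adjusted p = 0.00232).

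Expressed as a share of the summed per-length level of Tead1 to Tead4, Tead3 rose from 17.2% ± 0.590 (SD, n = 3) to 26.5% ± 1.15. The Tead4 share went the other way, from 26.3% ± 0.511 to 15.7% ± 0.245. The mock libraries held more Tead4 than Tead3 and the p140Cap libraries more Tead3 than Tead4, with no overlap between the groups for either share. Tead1 held 55.6% ± 1.31 and 56.3% ± 1.01, and these overlapped. The sum of the family was 21.1 ± 0.260 and 23.0 ± 0.861 CPM per kb (SD, n = 3). Exact permutation tests gave p = 0.1 for Tead3, Tead4, Tead2 and the sum (0.125 adjusted over the 5 values) and p = 0.5 for Tead1. The order of Tead3 and Tead4 in mock cells depends on the gene length used. With the longest annotated transcript in place of all exons, Tead3 held 24.4% in mock and 35.2% in p140Cap cells and Tead4 held 19.6% and 11.0%, so that Tead3 was above Tead4 in both groups. Tead1 then held 55.0% in mock and 52.2% in p140Cap cells, which turns the direction of its change.

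**Figure D2:**
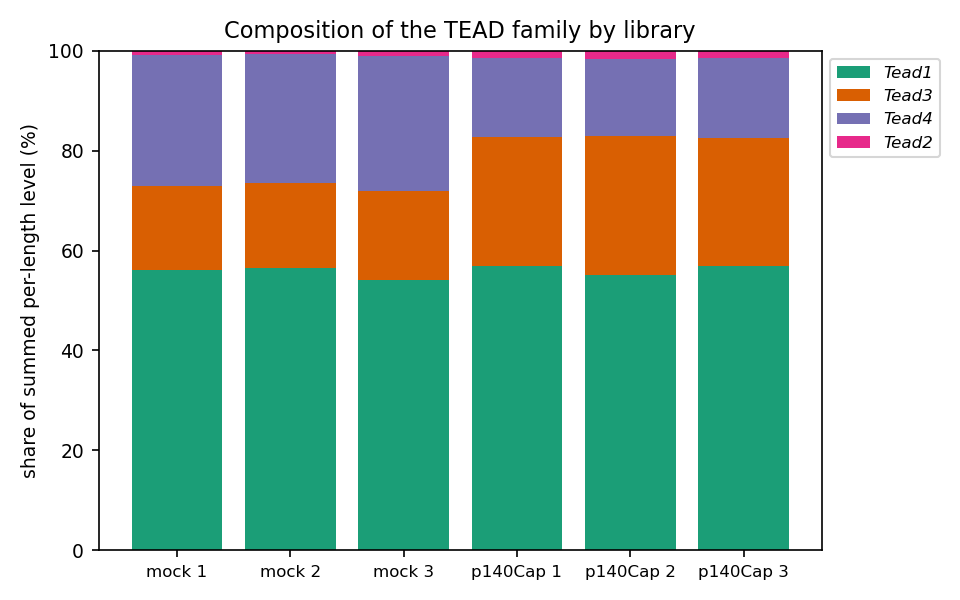
Share of each TEAD gene in the summed per-length level (CPM per kb of exon) of Tead1 to Tead4, in percent, with 1 bar for each library. Tead1 holds the largest share in every bar, and by these exon lengths Tead3 and Tead4 change places between the mock bars (17.2% and 26.3% on average) and the p140Cap bars (26.5% and 15.7%).

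The LATS kinases, which phosphorylate YAP and TAZ, stayed within narrow limits. Lats1 (ENSMUSG00000040021, mm10 chromosome 10, 7681200 to 7716461, plus strand) had 114, 114 and 107 CPM in mock and 108, 107 and 104 CPM in p140Cap libraries. These overlapped, and the log2 fold change of -0.07 (SE 0.05) had a 95% interval from -0.17 to 0.03 (edgeR adjusted p = 0.197). Lats2 (ENSMUSG00000021959, mm10 chromosome 14, 57689662 to 57746212, minus strand) had 27.0, 24.0 and 25.0 CPM in mock and 26.0, 24.4 and 26.1 CPM in p140Cap libraries. Its groups overlapped as well, with a log2 fold change of 0.00 (SE 0.07, 95% interval -0.14 to 0.15, edgeR adjusted p = 0.971). The ratio of the Lats2 to the Lats1 per-length level was 0.251 to 0.282 in mock and 0.272 to 0.301 in p140Cap cells. These ranges overlapped, and the exact permutation p was 0.4.

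Of the 4 target genes, Ctgf was called lower, and neither Cyr61 nor Amotl2 was called. Ctgf (ENSMUSG00000019997, mm10 chromosome 10, 24595442 to 24598683, plus strand) encodes a secreted matricellular protein and is a classical target of YAP and TEAD. Reads numbered 148, 84 and 69 in mock and 6, 6 and 4 in p140Cap replicates, that is 1.93, 2.11 and 2.07 CPM against 0.395, 0.409 and 0.294 CPM. All p140Cap libraries were far below all mock libraries, and the means were 2.04 ± 0.0934 (SD, n = 3) and 0.366 ± 0.0629 CPM. Its log2 fold change was -2.45 (SE 0.27, 95% interval -3.01 to -1.88), and edgeR's adjusted p was 4.08e-07. Ctgf passed the filter on low counts through its mock libraries alone, and it is not tested, so not called, when at least 10 reads are required in every library. Reads pooled over a group, 301 in mock and 16 in p140Cap, gave a level 5.47 times higher in mock, and the 95% exact binomial interval, for counting error alone, was 3.31 to 9.69.

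Cyr61 (ENSMUSG00000028195, mm10 chromosome 3, 145646971 to 145649985, minus strand), a matricellular protein of the same CCN family, had 48.9, 44.1 and 47.1 CPM in mock and 41.5, 48.6 and 40.9 CPM in p140Cap libraries. The groups overlapped through p140Cap replicate 2, and the means were 46.7 ± 2.43 (SD, n = 3) and 43.7 ± 4.25 CPM. Its log2 fold change was -0.10 (SE 0.07, 95% interval -0.24 to 0.04, edgeR adjusted p = 0.193). Without p140Cap replicate 2, Cyr61 was called lower, with a log2 fold change of -0.19 (edgeR adjusted p = 0.0175). Ctgf and Cyr61 were therefore set side by side within each library, a ratio chosen after their values were seen. The Ctgf level was 0.0252 to 0.0305 of the Cyr61 level in mock and 0.00458 to 0.00607 of it in p140Cap libraries. The log2 ratio, given as a description, differed by -2.39.

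Ankrd1 (ENSMUSG00000024803, mm10 chromosome 19, 36111965 to 36119844, minus strand), an ankyrin repeat protein of the nucleus and the sarcomere, had 38, 15 and 11 reads in mock and 3, 4 and 2 reads in p140Cap libraries. The mock libraries lay at 0.497, 0.377 and 0.330 CPM and the p140Cap libraries at 0.198, 0.272 and 0.147 CPM, with no overlap. The pooled reads, 64 and 9, gave a level 2.07 times higher in mock, with a 95% exact binomial interval of 1.02 to 4.72 for counting error. When Ankrd1 was kept in the test by dropping the filter on low counts, its log2 fold change was -1.03 and edgeR's adjusted p was 0.0936, so a difference was not shown at this depth. Over the 424 tested genes of chromosome 19 the median log2 fold change was -0.34, against -0.07 to 0.06 for the 19 other chromosomes, and the part of this in the Ankrd1 value was not tested.

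Amotl2 (ENSMUSG00000032531, mm10 chromosome 9, 102717091 to 102733418, plus strand) encodes an angiomotin that holds YAP at junctions and is itself a YAP target. It had 56.1, 50.4 and 56.8 CPM in mock and 51.2, 60.8 and 57.6 CPM in p140Cap libraries. The groups overlapped, and the log2 fold change of 0.05 (SE 0.07) had a 95% interval from -0.09 to 0.19 (edgeR adjusted p = 0.481).

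**Figure D3:**
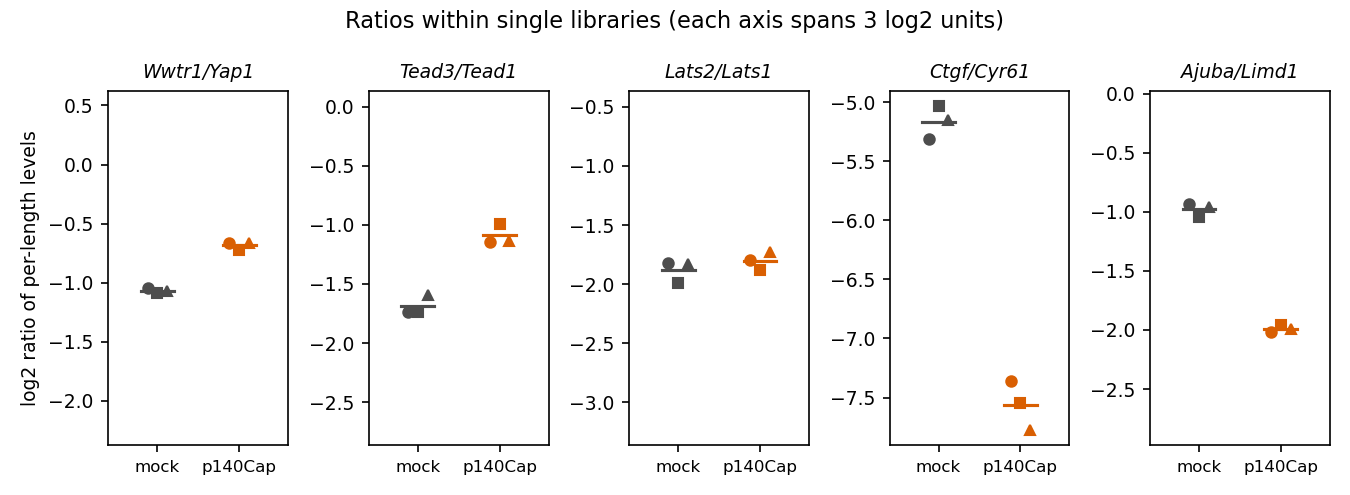
Log2 ratios of per-length levels within single libraries for 5 gene pairs, mock in gray and p140Cap in orange, with bars at group means and each axis spanning 3 log2 units. Wwtr1/Yap1 and Tead3/Tead1 lie higher and Ctgf/Cyr61 and Ajuba/Limd1 lower in all p140Cap libraries, while Lats2/Lats1 overlaps.

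The order of the members by level depends on the gene length used. With the length of all exons, in mock cells Cyr61 (23.0 CPM per kb) and Yap1 (22.4) came first and their ranges over libraries overlapped. They were followed by Tead1 (11.7), Wwtr1 (10.7), Lats1 (8.90), Amotl2 (7.71), Tead3 (3.63), Lats2 (2.41), Ctgf (0.640) and Ankrd1 (0.135), and no neighbors among these overlapped. In p140Cap cells Yap1 (22.9 CPM per kb) and Cyr61 (21.5) again overlapped at the top. There Wwtr1 (14.3) stood above Tead1 (12.9), and the ranges of Lats1 (8.47) and Amotl2 (8.01) overlapped. Tead3 (6.08), Lats2 (2.43), Ctgf (0.115) and Ankrd1 (0.0690) closed the order. With the longest annotated transcript as length, a setting added after seeing the data, Yap1 (39.7 CPM per kb in mock, 40.7 in p140Cap) stood above Wwtr1 (26.9 and 35.9), Cyr61 (23.0 and 21.5) and Tead1 (15.9 and 17.6) in both groups, with no overlap between these neighbors. The tie of Yap1 with Cyr61 and the order of Wwtr1 and Tead1 in mock cells therefore rest on the exon length, while Yap1 was above Wwtr1 with either length. The ratio of the Tead3 to the Tead1 level was 0.300 to 0.331 in mock and 0.453 to 0.504 in p140Cap libraries, a log2 difference of 0.60 (exact permutation p = 0.1).

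Among the genes upstream of LATS and YAP, no common direction was seen. Of 36 kinases, scaffolds and LATS regulators, 34 were tested, 8 were lower, 13 were higher and 13 did not pass the test (61.8% called, against 71.1% of all tested genes). Their median log2 fold change was 0.03. In the core cassette, the MST kinase gene Stk4 fell by 0.21 on the log2 scale (edgeR adjusted p = 0.000956). Of the MOB1 genes, whose products bind and activate LATS, Mob1a fell by 0.25 (edgeR adjusted p = 0.000418) and Mob1b was higher by 0.15 (edgeR adjusted p = 0.0284). The Mob1b call is lost without a filter (edgeR adjusted p = 0.0558) and without mock replicate 1 or 3 (0.0684 and 0.159) or p140Cap replicate 1 or 3 (0.128 and 0.0791). Values of Stk3, the other MST kinase, Sav1, their scaffold, and Nf2, the membrane activator of LATS, were -0.09, -0.06 and -0.01, with edgeR's adjusted p of 0.205, 0.276 and 0.912. The largest called changes among well-expressed genes of this list were those of Ajuba, Taok3, Scrib, Amot and Llgl1. Ajuba, a LIM protein that binds and restrains LATS, had 47.4, 45.0 and 47.4 CPM in mock and 28.9, 31.3 and 29.3 CPM in p140Cap libraries, and its log2 fold change was -0.64 (edgeR adjusted p = 4.32e-08). The polarity scaffold Scrib fell by 0.53 (edgeR adjusted p = 3.55e-07), while Llgl1, which acts with it in polarity, rose by 0.48 (edgeR adjusted p = 6.2e-06). Taok3, a kinase of the family that activates MST, rose by 0.60 (edgeR adjusted p = 3.18e-05), and the angiomotin gene Amot rose by 0.49 (edgeR adjusted p = 7.61e-05).

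The Ajuba family was also followed through its other genes, which were picked after their values were seen. Limd1 had 154, 158 and 157 CPM in mock and 200, 208 and 199 CPM in p140Cap libraries, with a log2 fold change of 0.37 (edgeR adjusted p = 1.42e-06). Ajuba and Limd1 thus moved in opposite directions, and their log2 ratio, given as a description since the pair was picked for this, differed by -1.01 between the groups. Wtip, the remaining gene of the family, had 79, 35 and 42 reads in mock and none in any p140Cap library, and the 95% exact binomial interval of its pooled level in mock over p140Cap began at 12.1. It is not tested with at least 10 reads in every library, which leaves 7 lower genes in this list. The angiomotin genes Amot and Amotl1 (log2 fold change 0.30, edgeR adjusted p = 3.35e-05) were higher, whereas Amotl2 was not called.

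The remaining TEAD genes and co-regulators numbered 7. Of these, 5 were tested and all 5 were called, 2 lower and 3 higher, where 71.1% of all tested genes were called, and the median log2 fold change was 0.27. With at least 10 reads required in every library, Vgll3 is not tested and 1 was lower. Besides Tead2 and Tead4, these were Vgll3, Vgll4 and Wbp2. Vgll4, which competes with YAP for TEAD, rose by 0.27 (edgeR adjusted p = 0.000113), and Wbp2, a WW-domain binding partner of YAP and TAZ, rose by 0.46 (edgeR adjusted p = 2.5e-07). Vgll3, a cofactor of TEAD singled out once its values had been looked at, counted 101, 43 and 48 mock reads against 2, 1 and 2 p140Cap reads. Its log2 fold change was -3.43 (SE 0.42, edgeR adjusted p = 1.52e-06), and like Ctgf it passed the filter through mock libraries alone and is not tested with at least 10 reads in every library. Its pooled level was 11.2 times higher in mock (95% exact binomial interval 4.7 to 34.8). Ctgf, Wtip and Vgll3, grouped here after their values were seen, had 16, 0 and 5 pooled reads in the shallower p140Cap libraries. Other scarce genes of these lists did not share this. Tead2 was higher, and the target Fjx1, with 65 and 15 pooled reads in mock and p140Cap, was not called (log2 fold change -0.31, edgeR adjusted p = 0.513).

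A list of 17 other YAP and TAZ targets did not share a direction either. Of the 11 tested, 4 were lower, 3 were higher and 4 did not pass the test (63.6% called, against 71.1% of all tested genes). The median log2 fold change of the list was -0.00. The lower genes were Nt5e, Crim1, Myof and F3. Nt5e, which encodes the ectonucleotidase CD73, had 430, 210 and 158 reads in mock and 6, 20 and 15 reads in p140Cap libraries, all below mock once scaled to library size. Its log2 fold change was -2.48 (SE 0.23, edgeR adjusted p = 5.66e-08). With 6 reads in p140Cap replicate 1, Nt5e is not tested when at least 10 reads are required in every library, which leaves 3 lower targets. Crim1, a membrane protein that binds growth factors of the BMP family, fell by 0.42 (edgeR adjusted p = 1.01e-05). Myof, a membrane repair protein on chromosome 19, and F3, the tissue factor, fell by 0.18 and 0.14 (edgeR adjusted p = 0.0053 and 0.00889). The median log2 fold change of the tested chromosome 19 genes was -0.34, and the part of this in the Myof value was not tested. The higher genes were the phosphatase Ptpn14, which binds YAP, the growth factor Tgfb2 and the exchange factor Dock5, with log2 fold changes of 0.45, 0.25 and 0.23 (edgeR adjusted p = 0.000155, 0.000299 and 0.00166). The other 6 were too scarce to test, among them the receptor tyrosine kinase Axl with 11 reads in all mock libraries and 0 in p140Cap libraries.

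**Figure D4:**
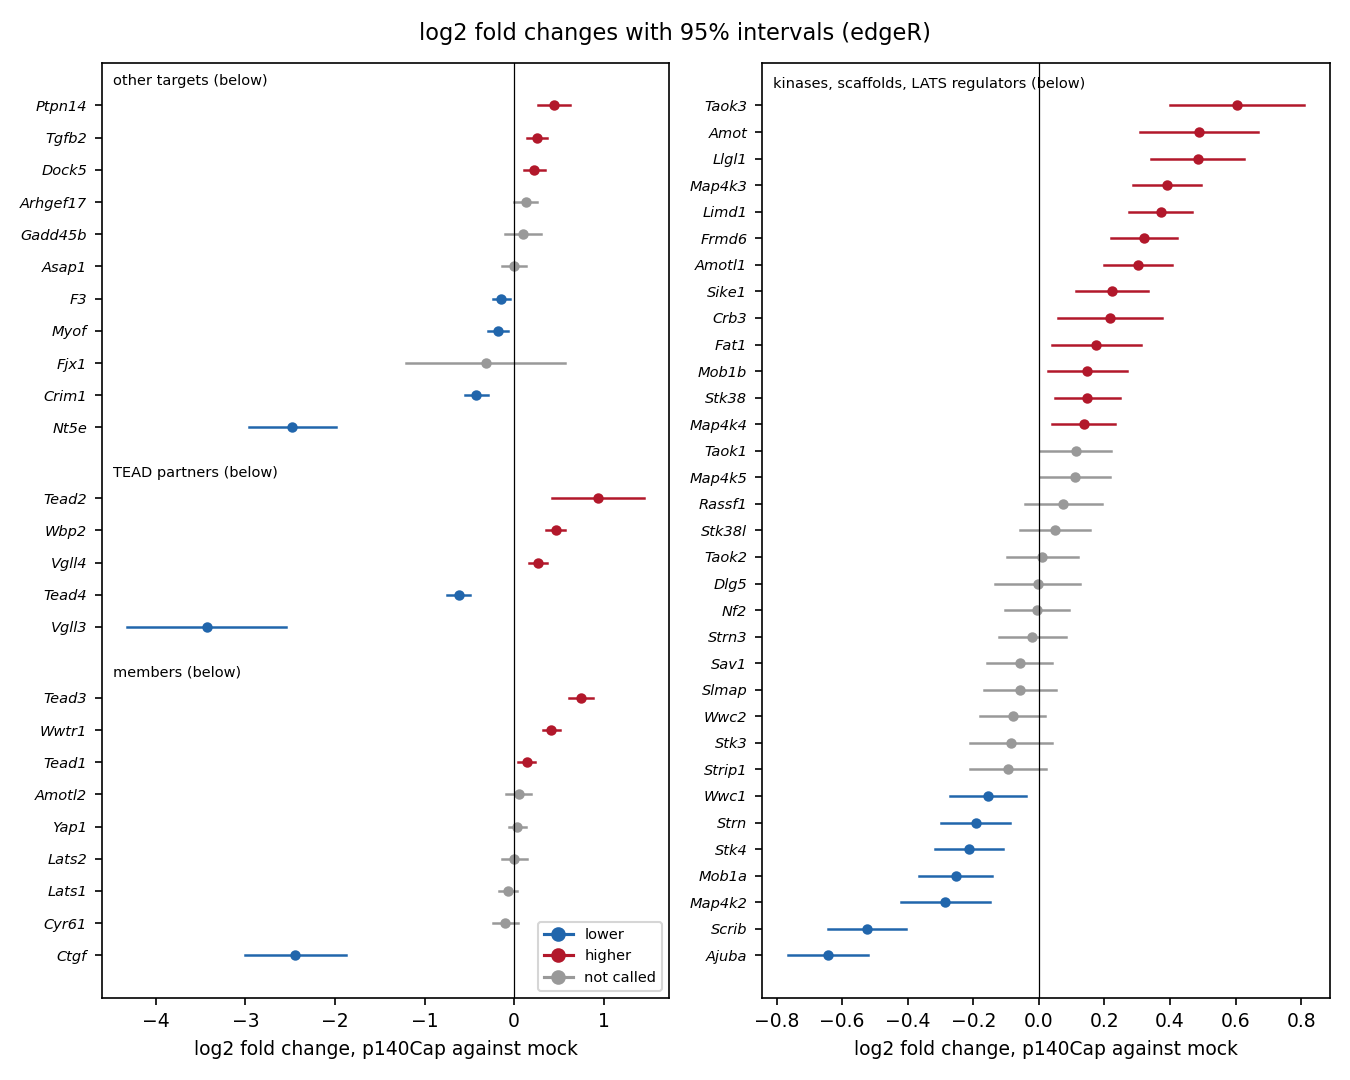
Log2 fold changes of p140Cap against mock with 95% intervals from edgeR for the tested members, TEAD partners and other targets (left) and the tested kinases, scaffolds and LATS regulators (right), with blue for lower, red for higher and gray for not called. Ctgf (-2.45), Vgll3 (-3.43) and Nt5e (-2.48) stand apart on the left. Of these, Ctgf and Vgll3 passed the filter through mock libraries alone, and Nt5e had 6 reads in p140Cap replicate 1. Wtip, with 0 reads in p140Cap libraries, is not drawn.

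The genes whose profile over the 6 libraries was most like that of Ctgf were sought by the root mean square distance between log2 CPM values after subtraction of each gene's mean. They were Foxred2 (distance 0.103), Npr3, the clearance receptor of natriuretic peptides (0.117), and Chst2, a sulfotransferase (0.132), with pooled reads of 177 and 8, 1173 and 73, and 1083 and 65 in mock and p140Cap. This likeness rests mainly on the step between the groups, since 2 groups of 3 libraries give few other features to match. Apart from Tead3 and Amotl2, each member overlaps an annotated gene on the other strand, and Tead1 and Lats2 also overlap genes on their own strand. The sources used here do not say whether counting used strand, so reads of such pairs may not have been told apart.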

How the data were processed

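RNA of 3 mock and 3 p140Cap libraries of TuBo cells was poly(A)-selected per the labels, and made into stranded libraries for a NextSeq 500, with samples and controls mixed in each run per the study's methods. The authors deposited counts, whole numbers of reads on 21960 genes in each library, without normalization. The submitters' processing notes name STAR 2.5, RSEM and the mouse build mm10 without their roles, and the study's methods name docker4seq. If RSEM made the deposited values, they are estimated counts that were rounded. The data availability text of the study names GRCm39 instead of mm10.

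Counts were analysed in R 4.3.3 with edgeR 4.0.16 (TMM factors, filterByExpr by group, quasi-likelihood test with condition as the only term, Benjamini-Hochberg adjustment over all 11800 tested genes, threshold 0.05). The SE of a log2 fold change is its size over the root of the F statistic, and the script was tested on simulated counts. CPM values use TMM-adjusted library sizes. Per-length levels divide CPM by the kb of all exons in the GENCODE annotation of GRCm39, matched by Ensembl identifier (98.6% of genes). Positions and promoters are from RefSeq GRCm38.p6, matched by symbol. Within-library ratios and shares were compared with two-sided exact permutation tests over libraries (scipy 1.17.1). Pooled reads were compared with exact binomial intervals, which cover counting error only.

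Total reads were 13770385 to 75506562 per library, edgeR's common biological coefficient of variation was 4.57%, and no library was a copy of another. The members and lists were chosen with earlier results of these data known. Named genes are the members, Srcin1, core genes (Tead2, Tead4, Stk3, Stk4, Sav1, Nf2 and Vgll4), and from each list up to 5 (upstream), 3 (TEAD partners) or 8 (targets) called genes with the largest absolute log2 fold change, groups that do not overlap and a mean log2 CPM of 1 or more, with the 3 genes nearest to Ctgf in profile. Limd1, Wtip, Vgll3, Amotl1, Mob1a, Mob1b, Axl, Fjx1 and the marker genes printed singly were named after their values were seen. Alternatives were RLE and upper quartile factors, DESeq2 1.42.0, limma-voom (limma 3.58.1), no filter, at least 10 reads in every library, thinning to the smallest total, the replicate number as a block, leaving out each library, and the longest transcript as gene length. Those for the Ctgf/Cyr61 and Ajuba/Limd1 ratios, for the pooled Ankrd1 reads and for the order of levels were added after seeing the data.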

Additional observations from a re-analysis of the deposited data

How the results depend on the processing

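Over the settings tried for the named genes, 483 of 500 values kept their direction and their side of the threshold, 9 changed sign, 7 lost the call and 1 gained it. With at least 10 reads required in every library, Ctgf, Vgll3, Nt5e and Wtip were no longer tested, so that 0 members, 1 TEAD partner, 3 other targets and 7 upstream genes were lower. Leaving out each library in turn gave 1 to 2 lower members, the higher number without p140Cap replicate 2, where Cyr61 was called (log2 fold change -0.19). The Tead1 call was lost with no filter (0.11) and without p140Cap replicate 1 (0.13), and the other 5 lost calls were of Mob1b (0.087 to 0.20 when libraries were left out). Signs changed only where no call was made. Lats2 was -0.027 without a filter, -0.0031 with at least 10 reads in every library, and -0.038 to 0.056 when libraries were left out, while Amotl2 ran from -0.0058 to 0.12 and Nf2 from -0.034 to 0.0097. The Tead1 share changed by -2.75 percentage points with the longest transcript, and by -0.0086 to 1.32 when libraries were left out, the lowest without mock replicate 3. Same-numbered libraries correlated at -0.03, -0.11 and -0.06 in their deviations from the group means, so no shared deviation by replicate number was seen. With 3 libraries in each group this cannot show that the design was unpaired. With the replicate block 4054 genes were lower and 3980 higher over the whole table, and the members stayed at 1 lower and 3 higher. The pooled Ankrd1 log2 ratio was -1.30 to -0.78 when libraries were left out. The p140Cap depth limits Ctgf, Vgll3, Wtip and Ankrd1, and 3 against 3 libraries cannot give an exact p under 0.1.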
